A study of Mus musculus with 36 samples.

Results

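Sox1, Pax6, Zic1, Nes, Tubb3, Map2 and Ncam1, genes widely used to mark the first steps of neural development, were followed through 12 culture conditions of mouse embryonic stem cells. They were chosen by name, with earlier results of these data known. The rows with these symbols were taken from the deposited count tables, which made 7 of 21516 genes. Map2 stands in the tables under its older symbol Mtap2. RNA was measured by QuantSeq, a bulk 3′ RNA sequencing assay in which a read marks the end of a transcript, in 36 libraries, 3 per condition.

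All cells came from 1 FUCCI line, an embryonic stem cell line of 129/sv origin with fluorescent cell cycle reporters, all grew in serum, and all were harvested after 72 h of treatment. RA cells received 1 µM retinoic acid in medium without leukemia inhibitory factor (LIF), the cytokine that keeps mouse embryonic stem cells self-renewing. ND cells, labelled as normal differentiation, had neither LIF nor an added compound. Sorb300 cells had LIF and 300 mM sorbitol, a sugar alcohol that raises the osmolarity of the medium. Another 8 groups had LIF and a toxicant, each at a lower and a higher dose: BP at 1 and 4 µM (BP1, BP4), cortisol at 10 and 60 µM (Cort10, Cort60), DEP at 5 and 10 µM (DEP5, DEP10) and PFOA at 60 and 100 µM (PFOA60, PFOA100). The lower dose was the lowest to affect growth and the higher one suppressed most of it, per the labels, and BP, DEP and PFOA are written as there. NS cells, the reference, had LIF and no added compound. RA therefore differs from ND in retinoic acid, and from NS in both retinoic acid and LIF.

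As background, embryonic stem cells that leave self-renewal can enter the neural lineage, and retinoic acid, a ligand of nuclear receptors, is a common inducer of that step. Sox1 and Pax6 encode transcription factors of the neural plate and neural tube, and Zic1 a zinc finger factor of the dorsal neural tube. Nes encodes nestin, the intermediate filament protein of neural progenitors. Tubb3 and Map2 encode a beta tubulin and a microtubule-associated protein of neurons, and Ncam1 encodes the neural cell adhesion molecule.

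RefSeq promoter windows of the GRCm38.p6 build, 250 bases before to 50 after a transcript start, were at hand for 6 of the 7 genes: Sox1, Pax6 (with 2 windows), Zic1, Nes, Tubb3 and Map2. The part before the start is shown for Tubb3 (chr8:123411303-123411552, + strand) and Map2 (chr1:66175079-66175328, + strand), because these genes moved furthest apart in the data. Capitals mark each match to the GC box letters GGGCGG, searched on both strands.
Tubb3: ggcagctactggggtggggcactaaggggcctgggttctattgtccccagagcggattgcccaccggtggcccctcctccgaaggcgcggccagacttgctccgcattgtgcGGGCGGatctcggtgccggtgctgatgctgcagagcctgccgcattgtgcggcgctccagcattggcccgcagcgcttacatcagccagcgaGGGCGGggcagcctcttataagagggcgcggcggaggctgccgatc
Map2: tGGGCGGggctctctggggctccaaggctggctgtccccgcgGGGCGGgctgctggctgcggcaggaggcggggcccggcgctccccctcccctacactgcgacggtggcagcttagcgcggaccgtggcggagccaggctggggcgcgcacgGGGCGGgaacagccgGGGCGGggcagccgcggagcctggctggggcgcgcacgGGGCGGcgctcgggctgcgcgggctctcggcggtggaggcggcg
The Tubb3 stretch held 2 GC boxes and the Map2 stretch 5. Over the whole windows, Sox1 and Zic1 held 3 each, Nes 2 and Pax6 none, and 35.7% of all 32851 RefSeq windows held at least 1. The share of G and C in the members' windows was 77.7% for Map2, 70.7% for Sox1, 67.3% for Tubb3, 65.3% for Zic1, 58.7% for Nes and 58.7% and 46.3% for Pax6, against a median of 52.7% over all windows, so that 1 of the 2 Pax6 windows lay below that median and the other windows above it. The nuclear receptor hexamer AGGTCA was in none of these members' windows and in 16.3% of all windows. No window was at hand for Ncam1, so that gene was not searched. The POU octamer ATTTGCAT, in 1.74% of all windows, had 1 match in the Sox1 window, and the Sox motif ACAAAG, in 18.7% of all windows, had 1 match in the second Pax6 window. The E-box CANNTG, in 72.3% of all windows, had 1 match each in that Pax6 window and in the Zic1 window.

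Each library held 1848254 to 7288084 counts (median 4822563). Levels are given as CPM, counts scaled to a common library size, and 3 counts were worth 0.395 to 1.85 CPM depending on the library. Sox1, Pax6 and Zic1 lay near that floor in most groups. For each difference below, edgeR's quasi-likelihood test was run over 13498 genes, and a gene is called when its Benjamini-Hochberg adjusted p is under 0.05. The filter on low counts kept 6 members and removed Zic1. Per the series' design text, the 3 libraries of a group came from separate experiments, and all errors of levels are SD over n = 3. The treatment and the cell type were visible in other genes: all 15 listed retinoid-response genes were called higher in RA than in NS, and a list of 13 pluripotency genes summed to 601.2 to 1026 CPM in RA and 3611 to 4929 CPM in NS.

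The NS libraries were not alike. NS libraries 2 and 3 summed to 370.2 and 241.2 CPM over the retinoid-response list, against 56.9 CPM in NS library 1 and 43.0 to 108.2 CPM in the 30 libraries that were neither RA nor NS. Most of this was Stra8, a gene that retinoic acid induces, which reached 232.4 and 128.8 CPM there but 8.64 CPM in NS library 1. Otx2, a forebrain and epiblast transcription factor, ran the other way, at 24.6 and 47.0 CPM there but 486.4 CPM in NS library 1, beside 101.1 to 804.4 CPM in those 30 libraries. Comparisons with NS were therefore repeated with library 1 as the only NS library, a check added after these values were seen, in which the lone library is assumed to vary like the other groups. The outcome is given for the members and for most of the single listed genes described in RA, ND and Sorb300. Counts and sums over a list use all NS libraries unless stated otherwise. Several of the counts of called genes, among them those of cell types, were smaller with library 1 alone. The part of this difference in each result was otherwise not tested.

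**Figure D1:**
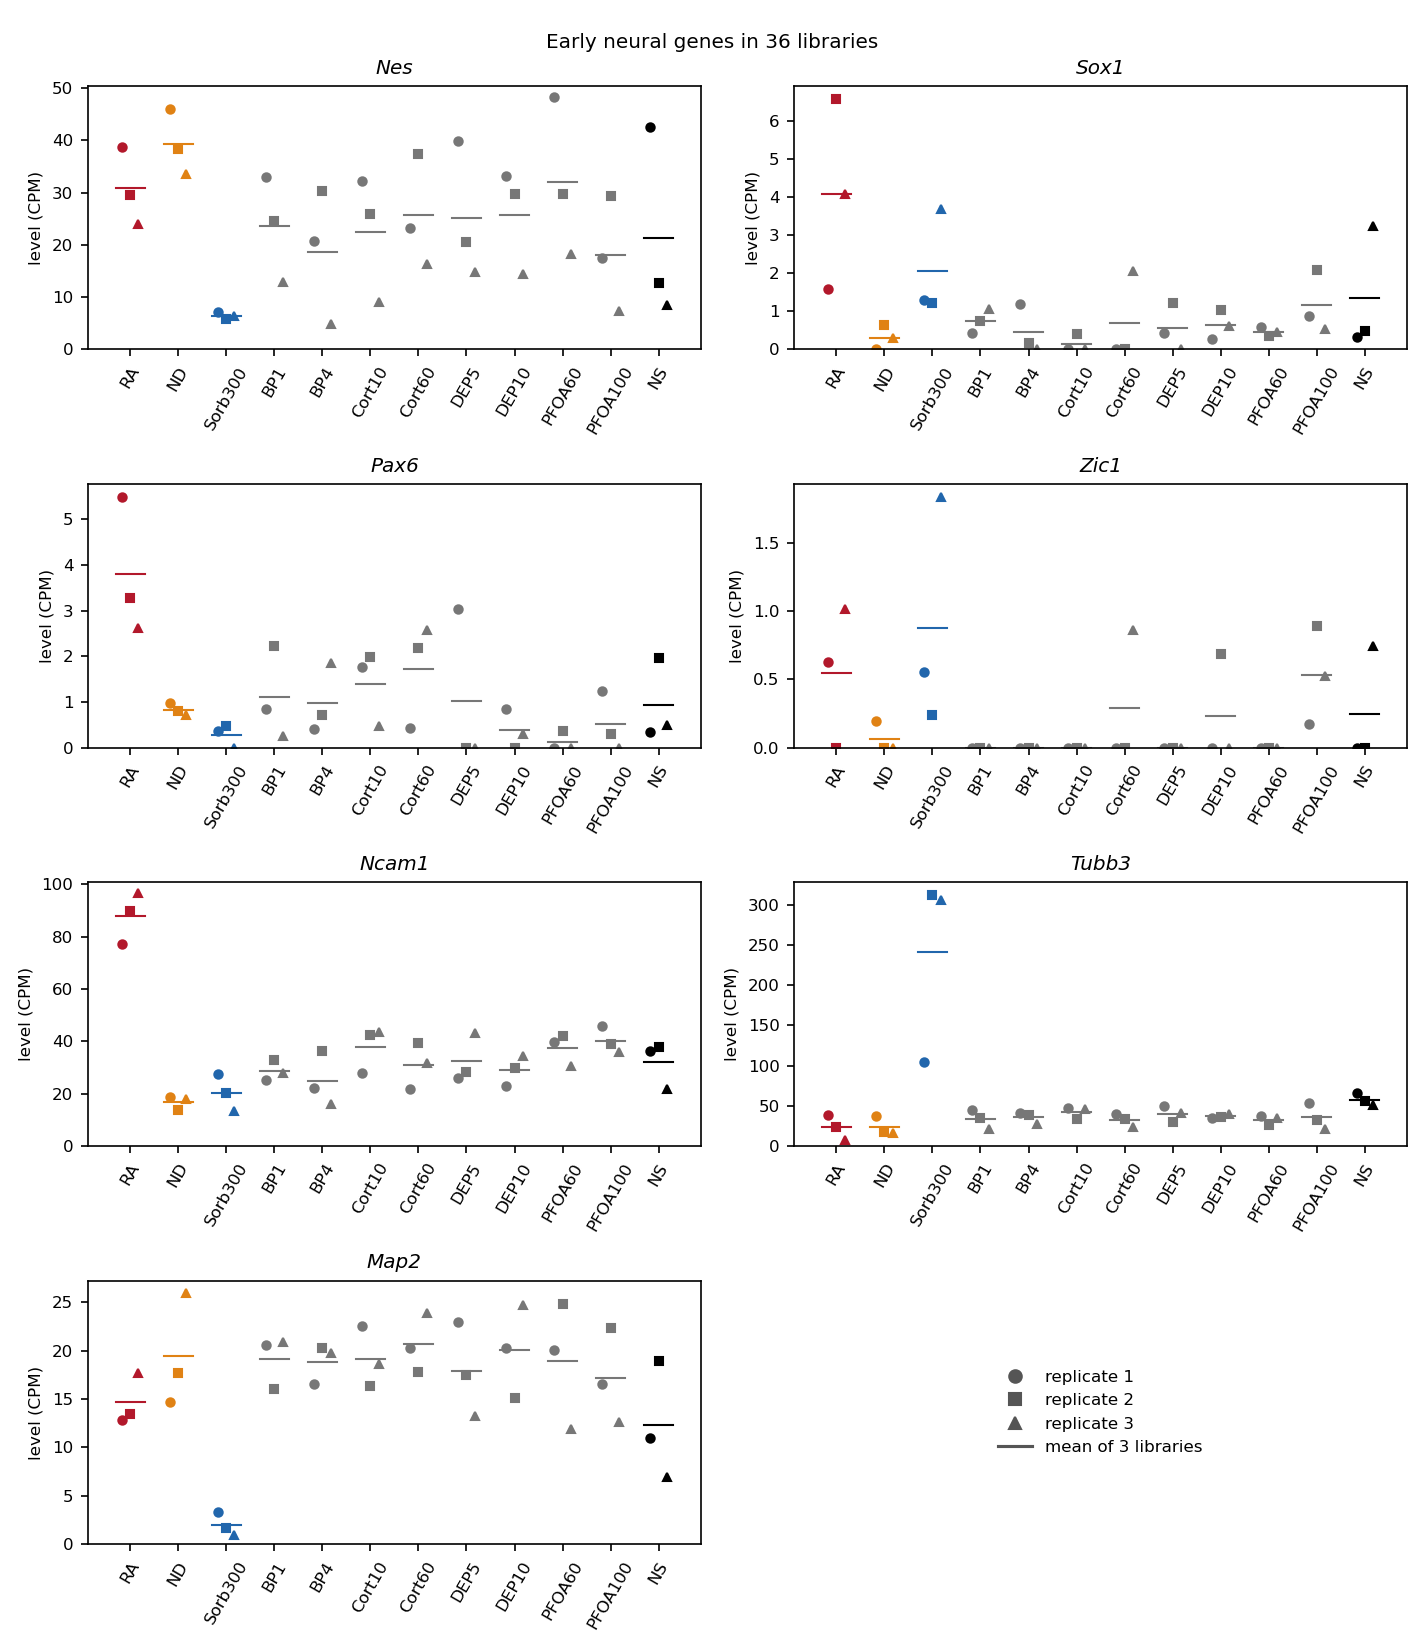
Level of each gene in CPM (vertical axis, linear, from 0) in the 3 libraries of each of the 12 groups (horizontal axis); marker shapes give the replicate number and horizontal lines the mean. Ncam1 stands highest in RA at 77.3 to 96.6 CPM, Tubb3 highest in Sorb300 at 104.4 to 312.8 CPM and Map2 lowest in Sorb300 at 0.919 to 3.31 CPM.

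The 7 genes did not move as a group in retinoic acid. Against NS, Ncam1 was higher in RA and Tubb3 lower, and the other 4 tested members passed the test in neither direction. Against ND, Ncam1 and Sox1 were higher in RA and no tested member was lower. Thus 2 of 6 tested members were called against NS, where 24.1% of all genes were (10.3% higher and 13.8% lower), and 2 of 6 against ND, where 18.2% were (8.05% higher and 10.1% lower). The median log2 fold change of the 6 was 1.01 against NS and 1.07 against ND, beside -0.0011 and -0.04 over all genes tested. RA libraries enter both comparisons, so these are not independent.

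Ncam1, whose product holds neural cells together and is expressed in other tissues too, was at 77.3, 89.8 and 96.6 CPM in RA libraries, 18.8, 13.7 and 17.7 CPM in ND libraries, with 36.2, 37.9 and 21.6 CPM for NS. Every RA library stood above all 33 others, the highest of which was at 45.8 CPM. The rise was 2.75-fold against NS (log2 fold change 1.46, SE 0.29, adjusted p = 0.000332, edgeR) and 5.24-fold against ND (log2 fold change 2.39, SE 0.30, adjusted p = 3.44e-07, edgeR). With NS library 1 alone it was 1.38 on the log2 scale (adjusted p = 0.0365). In the authors' deposited table, Ncam1 had a log2 fold change of 1.52 with an FDR of 1.13e-05 in RA against NS.

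Sox1, among the earliest markers of the neural plate, had 10, 20 and 28 counts in RA libraries (1.57, 6.58 and 4.07 CPM), 0, 4 and 2 counts in ND libraries (0, 0.644 and 0.289 CPM), and 1, 2 and 13 counts in NS libraries (0.332, 0.492 and 3.23 CPM). RA and ND did not overlap, whereas NS library 3 stood above the lowest RA library. Sox1 rose 11.5-fold in RA against ND (log2 fold change 3.53, 95% interval 1.25 to 5.80, adjusted p = 0.0248, edgeR). The difference from NS was 1.51 on the log2 scale (-0.54 to 3.56, adjusted p = 0.288) and did not pass; it ran from 1.02 to 3.24 on leaving out single libraries, highest without NS library 3, and was 3.58 with NS library 1 alone (adjusted p = 0.268). The call against ND rests on few counts and ended when any 1 of 4 libraries was left out, with an adjusted p of 0.113 without ND library 1, 0.0901 without ND library 3, 0.0948 without RA library 2 and 0.0512 without RA library 3. The log2 fold change itself ran from 3.04 without RA library 2 to 4.42 without ND library 2.

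Pax6, a factor of the neural tube and eye, had 35, 10 and 18 counts in RA libraries (5.50, 3.29 and 2.62 CPM), 5 counts in each ND library (0.982, 0.805 and 0.722 CPM), and 1, 8 and 2 counts in NS libraries (0.332, 1.97 and 0.497 CPM). All RA libraries lay above all ND and NS libraries, and of the 33 libraries outside RA only 1, from DEP5 at 3.03 CPM, reached the lowest of them. The test passed against neither, at a log2 fold change of 1.96 against NS (-0.16 to 4.08, adjusted p = 0.174) and 2.16 against ND (0.09 to 4.23, adjusted p = 0.145). Against NS it ran from 1.59 without RA library 1 to 3.17 without NS library 2 and was 3.50 with NS library 1 alone (adjusted p = 0.289). Fitted on the RA and ND libraries alone, the difference from ND was 2.22 with an adjusted p of 0.0103.

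Zic1 was barely detected, with 4, 0 and 7 counts in RA libraries, 1, 0 and 0 in ND libraries, and 0, 0 and 3 in NS libraries. The ratio of RA to NS was 2.50 with an exact 95% counting interval of 0.660 to 13.95, and that of RA to ND was 12.3 with an interval of 1.79 to 530.2. No count was found in 1 RA library, 2 ND libraries and 2 NS libraries. Without the filter on low counts its adjusted p was 0.709 against NS and 0.33 against ND.

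Nes, the progenitor filament gene, was at 38.8, 29.6 and 24.0 CPM in RA libraries, 45.9, 38.3 and 33.6 CPM in ND libraries, and 42.5, 12.8 and 8.45 CPM in NS libraries. The 3 ranges overlapped, and the NS libraries spread more than the groups differed. The log2 fold change of RA was 0.55 against NS (-0.57 to 1.68, adjusted p = 0.495) and -0.35 against ND (-1.44 to 0.75, adjusted p = 0.714). With NS library 1 alone the first turned to -0.37 (adjusted p = 0.776).

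Tubb3, the neuronal beta tubulin, was at 38.3, 23.3 and 7.12 CPM in RA libraries, 36.7, 16.7 and 16.2 CPM in ND libraries, and 66.5, 55.8 and 51.0 CPM in NS libraries. Every RA and ND library lay below every NS library. Tubb3 fell 2.52-fold in RA against NS (log2 fold change -1.33, SE 0.42, adjusted p = 0.0206, edgeR), and its means in RA and ND were close, 22.9 ± 15.6 and 23.2 ± 11.7 CPM (log2 fold change -0.01, -0.87 to 0.84, adjusted p = 0.988). The call against NS ended without RA library 2 (adjusted p = 0.0532), RA library 3 (log2 fold change -0.89, adjusted p = 0.12), NS library 1 (0.0769) or NS library 3 (0.0501), and with NS library 1 alone (-1.45, adjusted p = 0.111). In the authors' deposited table its log2 fold change was -1.28 with an FDR of 0.0216.

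Map2, a protein of neuronal microtubules, was at 12.9, 13.5 and 17.7 CPM in RA libraries, 14.7, 17.7 and 26.0 CPM in ND libraries, and 10.97, 18.9 and 6.96 CPM in NS libraries. The groups overlapped. The log2 fold change of RA was 0.26 against NS (-0.44 to 0.96, adjusted p = 0.619) and -0.40 against ND (-1.08 to 0.27, adjusted p = 0.447). The first was 0.52 with NS library 1 alone (adjusted p = 0.531).

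Loss of LIF without retinoic acid, ND against NS, gave 0 called members of 6, where 1.19% of all genes were called. At an unadjusted p under 0.05, which 12.5% of all genes passed, there were 2, Ncam1 and Tubb3; DESeq2 called 0 members too. Ncam1 was lower in every ND library than in every NS library (log2 fold change -0.93, -1.52 to -0.33, adjusted p = 0.115), and so was Tubb3 (-1.32, -2.18 to -0.47, adjusted p = 0.126). Same-numbered libraries of ND and NS deviated together, and in a fit blocked on that number Tubb3 was called lower in ND (log2 fold change -1.37, adjusted p = 0.0398). The intervals of the others included 0, at log2 fold changes of 0.90 for Nes, 0.66 for Map2, -2.02 for Sox1 and -0.20 for Pax6. With NS library 1 alone, Nes turned to -0.07 and Pax6 to 1.30, while Ncam1 was at -1.06, Tubb3 at -1.48, Map2 at 0.88 and Sox1 at -0.0035, none of them called (adjusted p from 0.496 to 1).

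Of the 4 comparisons with RA, ND or Sorb300, sorbitol gave the largest differences in Tubb3 and Map2. Tubb3 rose and Map2 and Nes fell in Sorb300 against NS, 3 called of 6 tested members where 30.4% of all genes were called (15.1% higher and 15.2% lower). The median log2 fold change of the 6 was -1.05, beside 0.004 over all genes.

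Tubb3 was at 104.4, 312.8 and 306.0 CPM in Sorb300 libraries, against 66.5, 55.8 and 51.0 CPM in NS libraries. Sorb300 library 1 was also the lowest of its group over 7 other beta tubulin genes, which summed to 2621, 6213 and 5312 CPM in Sorb300 libraries. For Tubb3, all 3 Sorb300 libraries stood above the other 33, of which the highest was an NS library. The rise was 4.17-fold (log2 fold change 2.06, SE 0.42, adjusted p = 0.000386, edgeR), and with NS library 1 alone it was 1.88 on the log2 scale with an adjusted p of 0.0694.

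Map2 was at 3.31, 1.70 and 0.919 CPM in Sorb300 libraries, against 10.97, 18.9 and 6.96 CPM in NS libraries. No other library was as low as any Sorb300 library. Map2 fell 5.63-fold (log2 fold change -2.49, SE 0.41, adjusted p = 2.34e-05, edgeR), and with NS library 1 alone it fell by 2.31 on the log2 scale (adjusted p = 0.0026).

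Nes was at 7.17, 5.82 and 6.43 CPM in Sorb300 libraries, the group with the smallest SD, against 42.5, 12.8 and 8.45 CPM in NS libraries. It fell 3.22-fold (log2 fold change -1.69, SE 0.61, adjusted p = 0.0342, edgeR). The size depended on the NS libraries: the log2 fold change was -2.69 with NS library 1 alone (adjusted p = 0.00998) and -0.73 without it (adjusted p = 0.388). The call also ended without Sorb300 library 1 (adjusted p = 0.0629), 2 (0.1) or 3 (0.0813).

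Ncam1 was at 27.6, 20.1 and 13.3 CPM in Sorb300 libraries, against 36.2, 37.9 and 21.6 CPM in NS libraries (log2 fold change -0.62, -1.22 to -0.03, adjusted p = 0.106). The groups overlapped. It passed without NS library 3 (adjusted p = 0.0488) or Sorb300 library 1 (0.0286). Sox1 had 7, 5 and 8 counts in Sorb300 libraries and 1, 2 and 13 in NS libraries, Pax6 had 2, 2 and 0 in Sorb300 and 1, 8 and 2 in NS libraries, and Zic1 had 3, 1 and 4 in Sorb300 and 0, 0 and 3 in NS libraries. The groups overlapped for all 3 genes (adjusted p of 0.764 for Sox1 and 0.399 for Pax6). Against NS library 1 alone the log2 fold changes were -0.79 for Ncam1, 2.48 for Sox1 and -0.01 for Pax6, none of them called (adjusted p of 0.211, 0.457 and 1).

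**Figure D2:**
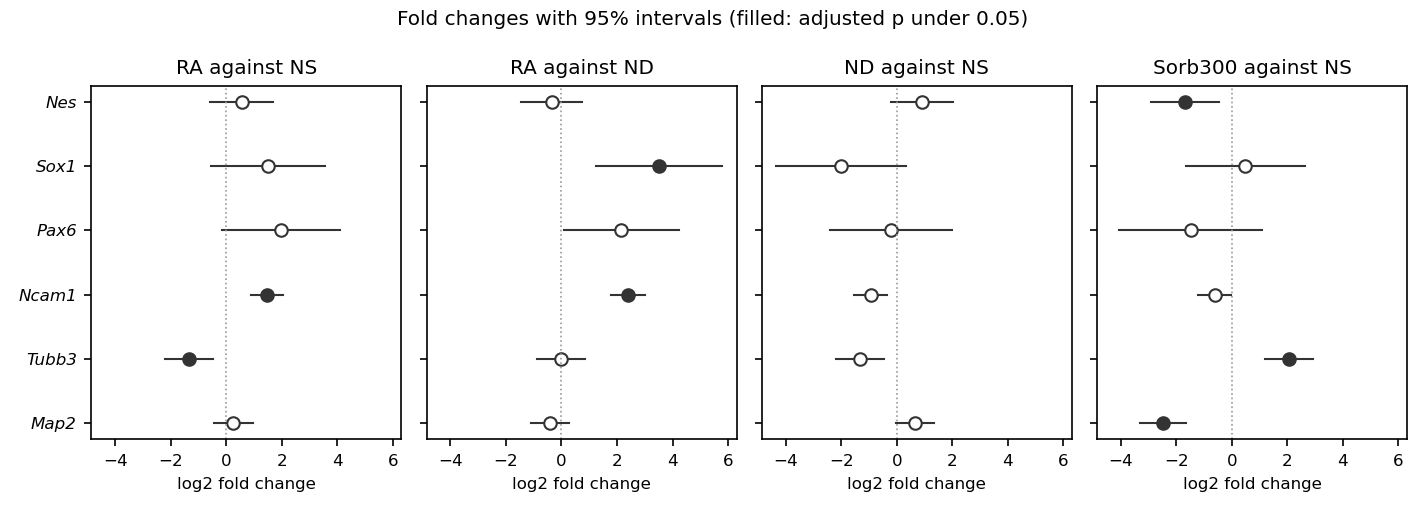
Log2 fold change (horizontal axis; points) with its 95% interval (lines) for the 6 tested genes in 4 comparisons, filled where the adjusted p is under 0.05. Ncam1 is filled in RA against NS and ND at 1.46 and 2.39, and Tubb3 and Map2 lie on opposite sides of 0 in Sorb300 against NS at 2.06 and -2.49.

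Across all 36 libraries, Tubb3 and Map2 were thus split by sorbitol. Over the 12 group means of log2 CPM the Pearson r was -0.89 for Tubb3 and Map2, -0.89 for Nes and Tubb3 and 0.79 for Nes and Map2. These describe 12 points, 1 of which, Sorb300, lies far from the rest, and the groups share no library but were scaled together.

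**Figure D3:**
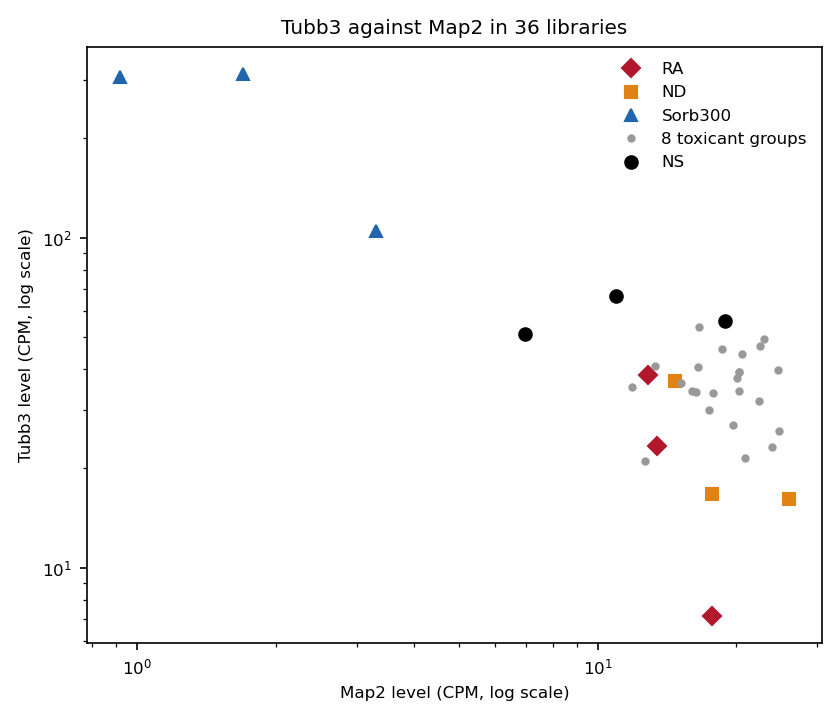
Tubb3 level against Map2 level in each of 36 libraries (both axes CPM on log scales), marked by group. The 3 Sorb300 libraries lie apart at 104.4 to 312.8 CPM of Tubb3 and 0.919 to 3.31 CPM of Map2.

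None of the 6 tested members was called in any of the 8 toxicant groups against NS, nor between the doses of any toxicant, with edgeR's adjusted p from 0.684 to 1. Of all genes, 0.0741% were called in PFOA60 and 0% in the other 7 groups and in the 4 comparisons of doses. At an unadjusted p under 0.05 there were 4 member differences in these 12 comparisons: Sox1 in Cort10, Tubb3 and Map2 in Cort60 and Map2 in DEP10. Over all genes, that unadjusted threshold was passed by 2.60% in BP1, 3.39% in BP4, 3.85% in Cort10, 6.05% in Cort60, 3.74% in DEP5, 4.55% in DEP10, 7.51% in PFOA60 and 4.83% in PFOA100 against NS, and by 0.615% for BP, 2.16% for cortisol, 1.21% for DEP and 1.85% for PFOA between doses. DESeq2 called no member in any of the 12.

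Levels of Tubb3 and Map2 leaned to one side of NS, without any call. Tubb3 ran from 21.1 to 53.6 CPM over the 24 toxicant libraries with a median of 35.7 CPM, and 23 of the 24 lay below every NS library. Map2 ran from 11.9 to 24.8 CPM with a median of 19.9 CPM, and 13 of the 24 lay above every NS library. The same 3 NS libraries serve all 8 comparisons, so the groups do not repeat one another. The share of all genes with such a split was not computed, so these counts do not set either gene apart. Nes (4.93 to 48.2 CPM, median 23.9) and Ncam1 (16.02 to 45.8 CPM, median 32.3) overlapped the NS range, Pax6 and Sox1 reached at most 3.03 and 2.08 CPM, and Zic1 had no count in 19 of 24 libraries.

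Ordered by mean, Ncam1 was highest in RA (87.9 ± 9.78 CPM), followed without separation of neighbours by PFOA100 (40.2 ± 5.10), Cort10 (37.9 ± 8.79), PFOA60 (37.5 ± 6.10), DEP5 (32.4 ± 9.22), NS (31.9 ± 8.94), Cort60 (31.0 ± 8.64), DEP10 (29.0 ± 5.78), BP1 (28.7 ± 3.77), BP4 (24.9 ± 10.3), Sorb300 (20.3 ± 7.13) and ND (16.8 ± 2.72 CPM). RA was the only group whose range was apart from its neighbour. Tubb3 was highest in Sorb300 (241.1 ± 118.4 CPM) and next in NS (57.8 ± 7.94), each apart from its lower neighbour, and then ran through Cort10 (42.3 ± 7.10), DEP5 (40.1 ± 9.72), DEP10 (36.8 ± 2.77), BP4 (35.6 ± 7.42), PFOA100 (35.6 ± 16.5), BP1 (33.3 ± 11.4), PFOA60 (32.9 ± 6.16), Cort60 (32.1 ± 8.13), ND (23.2 ± 11.7) and RA (22.9 ± 15.6 CPM) with overlap. The toxicant neighbour of NS, Cort10, was apart from it although PFOA100, lower by mean, was not.

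Map2 was within one overlapping run from Cort60 (20.7 ± 3.11 CPM) through DEP10 (20.0 ± 4.77), ND (19.5 ± 5.83), BP1 (19.2 ± 2.72), Cort10 (19.2 ± 3.13), PFOA60 (18.9 ± 6.54), BP4 (18.8 ± 2.01), DEP5 (17.9 ± 4.85), PFOA100 (17.2 ± 4.90) and RA (14.7 ± 2.65) to NS (12.3 ± 6.10), with Sorb300 (1.98 ± 1.22 CPM) apart below. Nes ran from ND (39.3 ± 6.21 CPM) through PFOA60 (32.1 ± 15.1), RA (30.8 ± 7.47), DEP10 (25.8 ± 9.94), Cort60 (25.6 ± 10.7), DEP5 (25.1 ± 13.2), BP1 (23.5 ± 10.0), Cort10 (22.4 ± 11.97), NS (21.3 ± 18.6), BP4 (18.7 ± 12.9) and PFOA100 (mean 18.1, from 7.38 to 29.4), all overlapping, to Sorb300 (6.47 ± 0.68 CPM), whose highest library at 7.17 CPM lay just under the lowest of PFOA100 at 7.38 CPM and above the lowest of BP4 at 4.93 CPM.

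Pax6 had its highest mean in RA (3.80 ± 1.51 CPM), apart from the next group, Cort60 (1.73 ± 1.15), and the means of the other 10 groups ran down to 0.118 ± 0.205 CPM in PFOA60 with overlap between all neighbours. Sox1 had its highest mean in RA too (4.07 ± 2.50 CPM), overlapping Sorb300 (2.06 ± 1.40) and NS (1.35 ± 1.63), and the lowest in Cort10 (0.132 ± 0.228 CPM).

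The replicate number moved with 2 of these genes. Nes was lowest in replicate 3 in 11 of 12 groups and in all 8 toxicant groups, and highest in replicate 1 in 9 of 12. Tubb3 was highest in replicate 1 in 10 of 12 groups. Ribosomal protein genes, 81 in number, took 16.8 to 19.7% of the counts in replicate 3 and 11.6 to 15.2% in replicates 1 and 2, leaving aside RA, ND and Sorb300. Leaving out the replicate-3 libraries left Ncam1 as the only member called in RA against either NS or ND. A fit blocked on the number changed 1 call, that of Tubb3 in ND given above.

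The wider neural programme was mixed in RA. Of 34 tested genes in a list of 48 neural progenitor genes, 6 were called higher and 5 lower against NS, and of 29 tested in a list of 42 proneural and neuronal genes 2 were higher and 7 lower. The medians were 0.33 and -0.65 on the log2 scale, beside -0.0011 over all genes. Against ND, 4 progenitor genes were higher and 6 lower, and 3 neuronal genes were higher and 7 lower. Of all genes, 10.3% were called higher and 13.8% lower in RA against NS, and 8.05% higher and 10.1% lower against ND. A bulk library cannot tell fewer cells of a type from less RNA per cell.

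Among progenitor genes, Gli3, a Hedgehog pathway transcription factor, was at 33.5 ± 10.2 CPM in RA and 7.25 ± 2.46 CPM in NS (4.65-fold higher, adjusted p = 0.000152, edgeR), and the homeobox gene Irx3 at 54.5 ± 18.2 CPM in RA and 8.83 ± 3.20 CPM in NS (6.11-fold higher, adjusted p = 0.0002). Sox2, shared by stem cells and neural progenitors, was at 94.9, 264.0 and 162.7 CPM in RA libraries, against 991.4, 820.3 and 563.7 CPM in NS libraries (4.57-fold lower, adjusted p = 0.000167). Its relative Sox3 was at 8.79, 10.8 and 10.2 CPM in RA libraries, 18.6, 19.8 and 17.6 CPM in ND libraries, and 7.65, 4.43 and 3.73 CPM in NS libraries, and passed against neither (adjusted p of 0.194 against NS and 0.204 against ND). Otx2 was at 2.51, 11.2 and 4.94 CPM in RA libraries, below all NS libraries (32.2-fold lower, adjusted p = 0.000337). Against NS library 1 alone it was 78.9-fold lower (adjusted p = 6.37e-06), Gli3 3.71-fold and Irx3 9.65-fold higher (adjusted p = 0.0479 and 0.00933) and Sox2 5.34-fold lower (adjusted p = 0.00197).

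Among neuronal genes, Stmn2, a microtubule-destabilising protein of growing axons, was at 49.2, 71.7 and 46.8 CPM in RA libraries, 159.6, 106.4 and 132.8 CPM in ND libraries, and 276.3, 440.5 and 584.3 CPM in NS libraries. It was 7.80-fold lower in RA than in NS (adjusted p = 1.59e-08, edgeR). Elavl3, a neuronal RNA-binding protein gene, fell 6.86-fold (adjusted p = 5.7e-07) and Neurod1, a proneural factor gene, 10.4-fold (adjusted p = 0.000156) in RA against NS. The same 2 fell against ND, by 1.90 and 3.97 on the log2 scale (adjusted p = 0.000162 and 1.93e-05). Mapt, which encodes the axonal protein tau, went the other way against ND (2.80-fold higher, adjusted p = 0.00153, edgeR). It was at 24.2, 17.8 and 28.1 CPM in RA libraries, and at 21.3, 34.4 and 35.1 CPM in NS libraries. All 3 falls were also called against NS library 1 alone, at 4.65-fold for Stmn2, 5.02-fold for Elavl3 and 10.5-fold for Neurod1 (adjusted p = 8.41e-05, 0.000724 and 0.00612). NS cells thus held transcripts of these neuronal genes, as of Tubb3. In that check, whose filter kept more genes, 4 of 38 tested progenitor genes were higher and 3 lower, and none of 35 tested neuronal genes was higher and 4 lower.

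Among relatives of the members, Zic2 was 12.7-fold lower in RA than in ND (adjusted p = 0.0096), and against NS it was not called (log2 fold change -1.70, adjusted p = 0.189). Of 13 tested Sox genes 5 rose and 2 fell against NS, led by Sox9, a neural crest and cartilage factor gene, at 101.4 ± 29.0 CPM in RA and 7.44 ± 1.33 CPM in NS (13.7-fold, adjusted p = 1.49e-07). None of 2 tested Pax genes was called. Of 7 tested adhesion genes related to Ncam1, Alcam rose 7.11-fold (adjusted p = 0.0131). Of 6 tested beta tubulin genes Tubb5 was lower, at 2495 ± 312.4 CPM in RA and 4210 ± 673.6 CPM in NS (1.69-fold, adjusted p = 0.0324). Of 7 microtubule-associated genes Map1a and Map7 were lower (3.59-fold and 1.70-fold, adjusted p = 0.00329 and 0.0278). Against ND, Tubb2a was 2.58-fold higher (adjusted p = 0.000893, edgeR). Tubb4 was 3.65-fold and Map1a 3.68-fold lower there (adjusted p = 0.0331 and 0.00306, edgeR). Sox9 and Map1a were called against NS library 1 alone (12.01-fold higher and 3.64-fold lower, adjusted p = 0.00126 and 0.0468), and the calls of Alcam (6.52-fold higher, adjusted p = 0.186), Tubb5 (0.215) and Map7 (1.24-fold lower, 0.624) ended.

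REST, the repressor of neuronal genes in other cells, was at 234.8, 248.9 and 238.9 CPM in RA libraries, 460.5, 366.3 and 404.7 CPM in ND libraries, and 437.5, 517.2 and 359.8 CPM in NS libraries. Every RA library was below every other of these. It fell 1.82-fold against NS and 1.70-fold against ND (adjusted p = 0.0119 and 0.0291, edgeR). Of the 9 genes of its corepressor list, which includes Rest, Rcor1 and Rcor3 rose against NS (2.17-fold and 4.14-fold) and Sin3a fell (1.71-fold, adjusted p = 0.00825). Of 7 tested BMP antagonists, which favour neural fate, Fst and Fstl1 rose (7.15-fold and 1.995-fold, adjusted p = 0.0124 and 0.00297) and none fell, and the 1 tested polysialylation gene, whose kind of enzyme modifies Ncam1, was not called. Rcor1 and Rcor3 were called higher against NS library 1 alone too (adjusted p = 0.00786 and 0.0418), and the calls of Rest (1.70-fold lower, adjusted p = 0.158), Sin3a (0.0693), Fst (0.128) and Fstl1 (0.0635) ended.

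**Figure D4:**
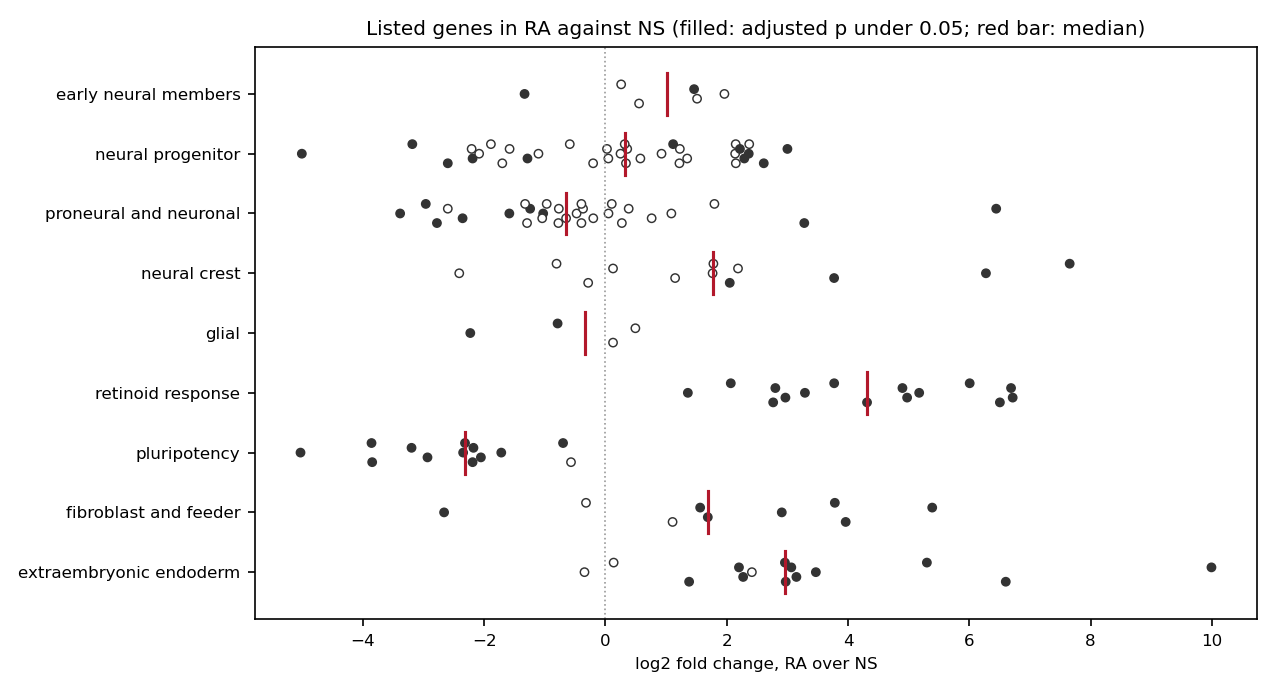
Log2 fold change of RA over NS (horizontal axis) for the tested genes of each list (rows; 1 point per gene), filled where the adjusted p is under 0.05, with the list's median as a red bar. The early neural members spread to both sides of 0 with a median of 1.01, whereas all 15 retinoid-response genes lie to the right and 12 of 13 pluripotency genes are filled to the left.

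Markers of some other cell types also differed between RA and NS, which differ in both retinoic acid and LIF. In this comparison 10.3% of all genes were called higher and 13.8% lower. Of 14 tested extraembryonic endoderm genes 11 rose and none fell against NS, and their summed level was 763.7 to 1479 CPM in RA libraries and 214.1 to 309.1 CPM in NS libraries. Of 9 tested fibroblast genes 6 rose and 1 fell (446.0 to 560.9 CPM in RA and 61.2 to 137.5 CPM in NS), and of 12 tested neural crest genes 4 rose and none fell (272.8 to 521.0 CPM in RA and 56.7 to 77.1 CPM in NS). Of 8 tested muscle genes 1 rose and 1 fell, near the shares over all genes (118.9 to 120.7 CPM in RA and 49.2 to 75.8 CPM in NS). Of 9 trophoblast genes 4 rose and 1 fell (1044 to 1855 CPM in RA and 324.0 to 406.8 CPM in NS), and of 9 mesoderm genes 3 rose and 2 fell (60.2 to 92.1 CPM in RA and 60.2 to 79.5 CPM in NS). Single genes carried some of these sums. In RA, Krt18 and Krt8 (means 763.5 and 388.7 CPM) made up most of the trophoblast sum. The collagen gene Col1a2 (mean 290.9 CPM) made up most of the fibroblast sum. The fibroblast gene that fell was Thy1, at 2.39 CPM in RA and 16.15 CPM in NS. Nr2f2, Sox9 and Nr2f1 (166.0, 101.4 and 43.1 CPM) made up most of the neural crest sum. Tnnt3, at 57.7 CPM in RA and 3.90 CPM in NS, made up most of the muscle rise. Glial genes, of which 4 of 9 were tested, had none higher and 2 lower (53.2 to 61.4 CPM in RA and 77.1 to 88.0 CPM in NS), and 2 of 4 tested endothelial genes were lower (18.7 to 27.6 CPM in RA and 18.1 to 27.9 CPM in NS). Against ND, where 8.05% of all genes were called higher and 10.1% lower, 12 of the 14 extraembryonic endoderm genes rose and none fell. There 8 neural crest, 6 fibroblast, 5 trophoblast, 5 mesoderm and 2 muscle genes rose. In turn 2 mesoderm genes fell, and 1 each of the neural crest, fibroblast, trophoblast and muscle genes. No glial or endothelial gene rose there, and 1 of each fell. Ncam1 is expressed in several of these tissues, and their part in its rise was not tested.

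In ND against NS no progenitor gene was called, and of the 29 neuronal genes 3 fell: Stmn2 (3.26-fold, adjusted p = 0.00166, edgeR), Mapt, which encodes the axonal protein tau (3.62-fold, adjusted p = 0.00226), and Tubb2b, a beta tubulin gene (2.68-fold, adjusted p = 0.0198). None of the 3 calls held with NS library 1 alone, where the values in ND were 2.01-fold lower for Stmn2, 2.45-fold lower for Mapt and 1.78-fold lower for Tubb2b (adjusted p = 0.515, 0.468 and 0.767). The genes named here and for Sorb300 were picked after their values were seen. Of all genes, 1.19% were called in ND against NS. In Sorb300 against NS, 15.1% of all genes were called higher and 15.2% lower. Of the 34 tested progenitor genes 3 rose and 5 fell there, and of the 29 neuronal genes 2 rose and 4 fell. Mapt was at 80.2, 137.9 and 111.7 CPM in Sorb300 libraries, against 21.3, 34.4 and 35.1 CPM in NS libraries (3.62-fold higher, adjusted p = 5.01e-05). Map1s, another microtubule-associated gene, was at 50, 207.9 and 177.4 CPM in Sorb300 libraries, against 54.5, 34.7 and 28.4 CPM in NS libraries (3.70-fold higher, adjusted p = 2.76e-05). Its groups overlapped, since Sorb300 library 1 lay below NS library 1, whereas those of Mapt did not. Map1b fell 2.45-fold (adjusted p = 0.00056). Of the beta tubulins, Tubb2c rose 2.93-fold (adjusted p = 0.00075) and Tubb4 fell 4.12-fold (adjusted p = 0.0323). The call of Tubb2c ended with NS library 1 alone (2.18-fold higher, adjusted p = 0.152); Mapt, Map1s, Map1b and Tubb4 were called in the same directions (adjusted p = 0.00313, 0.0388, 0.00295 and 0.0138). Microtubule genes thus moved in both directions in sorbitol. Of 9 tested trophoblast genes 7 rose and none fell there (510.5 to 1208 CPM in Sorb300 and 324.0 to 406.8 CPM in NS), and of 12 neural crest genes 4 rose and none fell (203.9 to 370.8 CPM in Sorb300 and 56.7 to 77.1 CPM in NS). Of 14 extraembryonic endoderm genes 5 rose and 1 fell (255.7 to 531.1 CPM in Sorb300 and 214.1 to 309.1 CPM in NS), and of 8 muscle genes 1 rose and 4 fell (36.8 to 71.5 CPM in Sorb300 and 49.2 to 75.8 CPM in NS). Of 9 fibroblast genes 1 rose and 2 fell (49.4 to 63.4 CPM in Sorb300 and 61.2 to 137.5 CPM in NS). Of 4 tested glial genes 1 fell and none rose. The glial list summed to 66.0, 110.5 and 122.2 CPM in Sorb300 libraries, against 77.1 to 88.0 CPM in NS libraries. No mesoderm or endothelial gene was called. The part of these cell types in the members' changes was not tested.

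The genes most like each member over the 12 group means were taken from 9433 candidates and describe those 12 points only. For Ncam1 they included Myl6 (Pearson r 0.96) and Tead1 (0.93), each highest in RA. Tubb3 was most like Acaa2 (0.99), Sntb2 (0.98) and Rpa2 (0.98), each highest in Sorb300. Map2 was most like Srpk2, Myo5a (both 0.99) and E2f5 (0.98), and Nes was most like Chd1 (0.96), Grik5 (0.95) and Zdhhc2 (0.95). The low genes gave Synpo (0.90), F2r (0.90) and Igfbp4 (0.88) for Pax6 and Nuak1 (0.96), Smad6 (0.96) and Mgat4b (0.96) for Sox1, each highest in RA.

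Some members share their place with another gene in the GENCODE M21 annotation of GRCm38. Gm20388 overlaps Tubb3 and Sox1ot overlaps Sox1 on the same strand, and Gm10558, Gm11149, Pax6os1 and Zic4 overlap Map2, Ncam1, Pax6 and Zic1 on the opposite strand. Since the strand used in counting is not given in the sources used here, reads of such pairs cannot be told apart. Gm11149 had 20 counts over all 36 libraries, Zic4 had 6 and Pax6os1 none.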

How the data were processed

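RNA of 36 libraries was profiled with a QuantSeq 3′ kit, per the labels' protocols. The authors deposited 11 tables of raw read counts per gene, with no normalization, each holding 1 condition and the same 3 NS columns. Per the file headers, the authors also deposited log2 fold changes and p-values with FDR. The submitters' processing notes name CASAVA 1.8.2, STAR, HTSeq, edgeR and build mm9; the sources used here give no settings, annotation or strand. Molecular identifiers are not named. The floors and the intervals of the Zic1 ratios cover only counting error, whereas the intervals of log2 fold changes also take in the spread between replicates.

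Groups came from the labels. Genes were filtered with filterByExpr by group (13498 kept) and scaled by TMM, and edgeR 4.0.16 in R 4.3.3 fitted the 36 libraries jointly, 1 mean per group (robust glmQLFit, 24 residual df, common BCV 0.306). Of 16 comparisons, each was tested with glmQLFTest and Benjamini-Hochberg adjustment at 0.05. The scripts were tested on simulated data for RA against NS. There 18 of 100 genes changed 2-fold and 62 of 100 changed 4-fold were called, with 1 false call. A gene that is not called may therefore still differ. Promoters came from RefSeq. Alternatives were DESeq2 1.42.0, its size factors, no filter, a replicate block, the 2 groups alone, libraries left out, and NS library 1 alone (added after seeing the data).

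The members and lists were chosen with earlier results of these data known. The members were named in every comparison, with Rest, Sox2 and Sox3; from each list, the rule gave up to 4 genes with the smallest adjusted p in RA against NS and 3 in RA against ND, with at least 5 CPM in the higher group, of which a selection by role is described. For likeness it gave the 3 genes of highest Pearson r with at least 10 CPM in a group. Some genes that these rules gave are not reported here. Same-numbered libraries' deviations from group means correlated at 0.167 on average, against -0.0818 for other numbers; every pair exceeded 0.1 in 10 of 16 comparisons, including ND against NS but not RA or Sorb300 against NS or RA against ND, and 33 of 36 libraries correlated best with their own number. Chi-square per degree of freedom between replicates was 5.15 to 63.0.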

Additional observations from a re-analysis of the deposited data

How the results depend on the processing

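The number of called members in RA against NS was 2 and became 1 (Ncam1) on the 2 groups alone, without the replicate-3 libraries of all groups, and with NS library 1 as the only NS library; it was 1 to 2 on leaving out single libraries. In RA against ND it was 2, 3 on the 2 groups alone (Pax6 added), 1 without the replicate-3 libraries, and 1 to 2 on leaving out single libraries. In Sorb300 against NS it was 3, 2 (Nes and Map2) with NS library 1 alone, and 2 to 4 on leaving out single libraries. With the replicate block, in ND against NS it became 1 (Tubb3) instead of 0; the block changed no other member's call, and in RA and Sorb300 comparisons the numbers are only shared. No member was called for toxicants in any of these fits.

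Signs of uncalled log2 fold changes turned as follows. For Tubb3 in RA against ND (-0.01) the value was 0.0241 on the 2 groups alone, 0.0663 with DESeq2 size factors, 0.0648 with DESeq2, 0.0233 without the filter, 0.43 without RA library 3, -0.66 to 0.52 on leaving out each library in turn (the highest without ND library 1) and 0.27 without replicate-3 libraries. Map2 in RA against NS was -0.15 without replicate-3 libraries. On leaving out single libraries, Pax6 in ND against NS was -0.55 to 0.96 (highest without NS library 2), and Sox1 in Sorb300 against NS was -0.14 (without Sorb300 library 3) to 2.14. With NS library 1 alone, Nes was -0.37 in RA and -0.0666 in ND, and Pax6 was 1.30 in ND. The cause was not tested. Ncam1 in RA against NS stayed between 1.32 and 1.69 on leaving out single libraries. The genes called over the whole table in ND against NS were 161, 338 with DESeq2, 552 with the block, 42 without replicate-3 libraries and 1 with NS library 1 alone; in RA against NS they were 3259 and 1354 with NS library 1 alone, in RA against ND 2450 and 4072 on the 2 groups alone, and in Sorb300 against NS 4102, 2284 on the 2 groups alone and 1433 with NS library 1 alone. On leaving out single libraries they ran from 32 (without NS library 2) to 75 in 5 of 6 fits of ND against NS and were 312 in the other, without NS library 1. They ran from 1886 (without NS library 3, and 2037 without RA library 1) to 2867 in RA against NS. In RA against ND they ran from 1509 (without RA library 1, and 1613 without ND library 3) to 2005. In Sorb300 against NS they ran from 2949 (without Sorb300 library 2) to 4922 (without Sorb300 library 1).

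Depth limits Sox1, Pax6 and Zic1, for which a library with no count allows up to 3 counts, 0.395 to 1.85 CPM.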
